A study of Mus musculus with 12 samples.

Results

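The genes described here are 10 mouse genes of the antioxidant and glutathione systems that are commonly grouped with the transcription factor Nrf2: Hmox1, Nqo1, Srxn1, Txnrd1, Gclc, Gclm, Sod2, Gsta3, Gpx3 and Cth. They were taken by name, as every probe set of the array that carries a single one of these symbols, which gave 19 probe sets for 10 of the 12393 genes with a single symbol. All 10 genes passed the filter on low signals and were among the 8111 genes tested. Heart RNA of 12 C57Bl/6 mice was measured on 12 arrays, 3 mice in each of 4 groups. MI hearts had a surgically induced myocardial infarction, and sham hearts had the surgery without it. In the wake groups, surgery was done between ZT13 and ZT15 (ZT is zeitgeber time, in hours of the lighting schedule) and hearts were collected at ZT23. In the sleep groups, surgery was done between ZT1 and ZT3 and hearts were collected at ZT11. All hearts were listed as taken 8 hours after surgery, though the surgery windows allow a longer time for some hearts. The time of surgery and the time of collection differ together between wake and sleep and cannot be told apart. The question was how these genes stood in the 4 groups about 8 hours after infarction, and whether the infarct response differed between the times of day.

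Nrf2 is a transcription factor that is held at a low level by its partner Keap1, which passes it on for degradation. Oxidants and electrophiles that modify Keap1 let Nrf2 accumulate, pair with small Maf proteins and bind antioxidant response elements near its target genes, while Bach1 competes for the same sites. The targets make and use reduced glutathione and thioredoxin, degrade haem, and supply NADPH. In infarcted heart muscle, hypoxia, dying cells and arriving neutrophils are known sources of oxidants and of free haem.

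The values are deposited microarray signals on a linear scale, and a level is always given on that scale. A difference is given as log2, on the log2(signal + 16) scale, with its standard error (SE). A change over both times is the mean of the wake and the sleep MI effects, so it can come mostly from either. The test was limma's moderated test over all 12 arrays with Benjamini-Hochberg adjustment over 8111 genes, and genes with an adjusted p below 0.05 count as called. Signals of different genes come from different probes and were not set against each other. Median signals of the arrays lay between 32.7 and 34.7, and with 3 arrays per group their number sets the limit of precision. All 10 cardiomyocyte markers looked at were above the filter, with summed signals of 68248 to 96316 per array, so the arrays carry heart muscle RNA. The sham arrays wake sham 3 and sleep sham 3 stood apart by their atrial markers (Myl7, Myl4, Sln and Nppa), which summed to 14686 and 4720 there and to between 998 and 2949 on the other 10 arrays. The beta-actin control ratio, 3' end over 5' end, a sign of RNA integrity, was 1.77 to 1.81 in wake sham hearts, 2.17 to 3.31 in wake MI, 1.94 to 2.49 in sleep sham and 2.09 to 2.92 in sleep MI hearts. It therefore separated the wake groups, and calls of the 10 genes that are lost with it in the fit, or without the atrial-rich arrays, are given beside the result.

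Across both times of day the 10 genes did not move together in infarcted hearts. Hmox1, Txnrd1, Srxn1 and Gclc rose. Gsta3 (with its main probe set only), Gpx3 and Cth fell, and Nqo1, Gclm and Sod2 did not pass the test. The genes called were 7 of 10, beside 22.2% of all genes tested (8.57% higher and 13.6% lower) in the same comparison. The 10 genes were chosen with earlier results of these data known, so this share is no test of them as a group. The median change of the 10 genes was -0.06, the same as the median of all genes tested, -0.06. The changes ran from a rise of Hmox1 by 1.13 on the log2 scale, the highest of the 10, to a fall of Cth by 0.66. In bulk tissue, fewer cells of a type and less RNA per cell cannot be told apart, and this holds for each change described here.

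**Figure D1:**
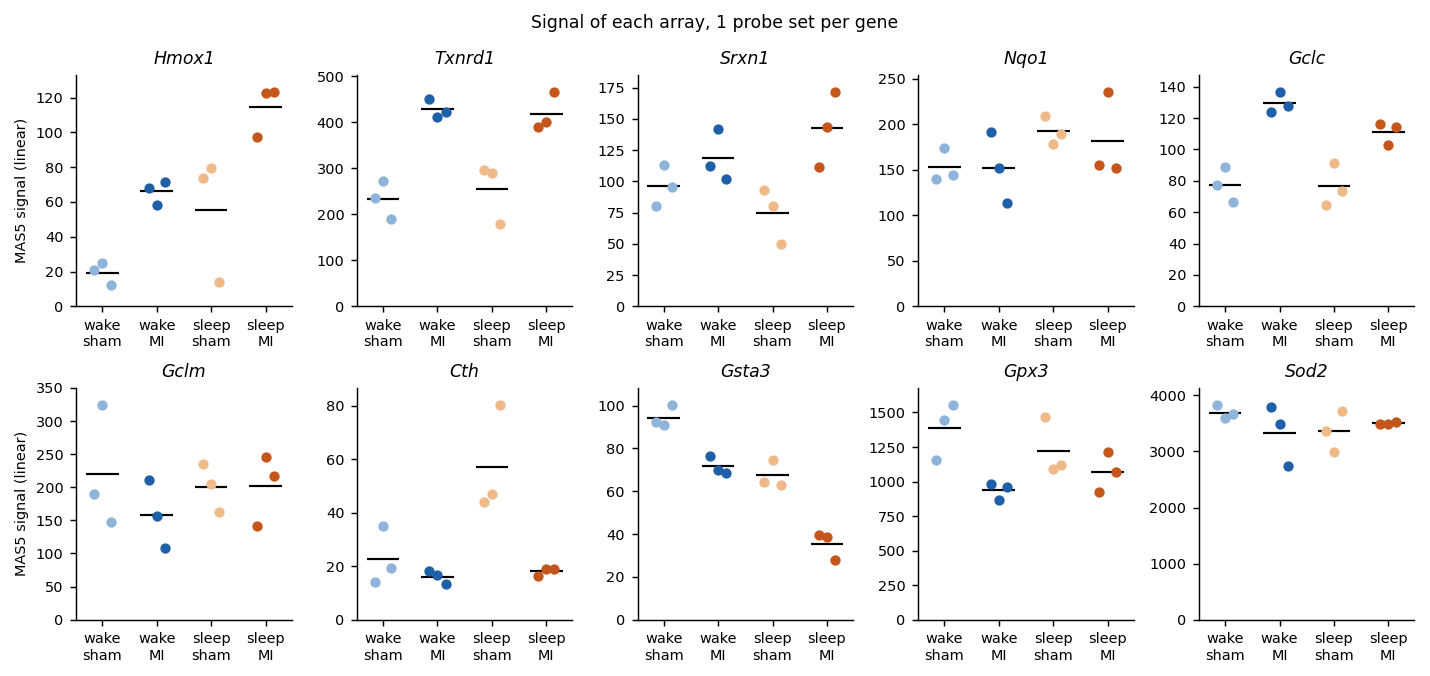
Deposited signal (linear scale, vertical axis) of each of the 10 genes on each of the 12 arrays, by group, with 1 point per mouse and a bar at the mean of 3. Hmox1, Txnrd1 and Gclc lie higher in every MI heart than in every sham heart of the same time of day. Gsta3 lies lower with the probe set shown, and Nqo1, Gclm and Sod2 overlap between MI and sham.

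The stretches of promoter that hold a match to the antioxidant response element or to the related AP-1 site are shown to set the genes side by side. RefSeq promoters (build GRCm38.p6, 250 bases before to 50 after the start) matched 7 of the 10 genes, 9 promoters in all; Hmox1, Gclc and Cth were not matched. The 250 bases before the start were searched on both strands for TGACNNNGC, the core of the antioxidant response element, for TGAGNNNGC, a variant of it, and for TGACTCA, the AP-1 site. At least 1 match was found in 4 genes, and the capitals mark the matched bases, or the merged run where 2 matches overlap.
Srxn1 (chr2:152105341-152105512, + strand): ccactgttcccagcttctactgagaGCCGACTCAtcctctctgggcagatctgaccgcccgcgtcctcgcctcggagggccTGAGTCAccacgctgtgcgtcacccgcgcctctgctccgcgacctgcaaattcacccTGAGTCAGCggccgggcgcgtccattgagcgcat
Txnrd1 (chr10:82859089-82859147, + strand): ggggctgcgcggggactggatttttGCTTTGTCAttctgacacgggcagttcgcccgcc
Gclm (chr3:122245398-122245456, + strand): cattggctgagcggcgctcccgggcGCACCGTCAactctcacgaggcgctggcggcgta
Gsta3 (chr1:21240439-21240497, + strand): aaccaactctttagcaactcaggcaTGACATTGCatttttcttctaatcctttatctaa
The Srxn1 stretch ends 12 bases before the start and holds 4 matches, 2 of TGACTCA and 2 of TGAGNNNGC, 1 of each sharing bases at 45 to 37 before the start. The Txnrd1 match is TGACNNNGC on the opposite strand, 92 to 84 bases before 1 of its 3 annotated starts. The Gclm match is the same motif on the opposite strand, 134 to 126 bases before the start. The Gsta3 match is this motif on the same strand, 121 to 113 bases before the start. Of 32851 RefSeq promoters, 10.2% hold TGACNNNGC, 14.4% hold TGAGNNNGC and 4.46% hold TGACTCA in the same window, so a match is common. The share with at least 1 of these motifs was not counted, so no like share stands beside the 4 genes. The genes with a match include 2 that rose in MI hearts (Srxn1 and Txnrd1). They also include 1 that fell with its main probe set only (Gsta3) and 1 that did not pass the test (Gclm). A match describes the letters only, and the array did not measure binding.

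Hmox1 encodes haem oxygenase 1, the inducible enzyme that breaks haem down to biliverdin, carbon monoxide and iron. Its signal was 21.2, 24.8 and 12.2 in the wake sham hearts and 68.1, 58.4 and 71.5 in the wake MI hearts. In the sleep sham hearts it was 73.6, 79.4 and 13.8, and in the sleep MI hearts 97.5, 123 and 123. MI and sham hearts did not overlap at either time, but sleep sham 1 and 2 stood above all wake MI hearts, and sleep sham 3 lay among the wake sham hearts. The rise over both times was 1.13 (SE 0.23, adjusted p 0.00406), a 2.19-fold difference. In wake hearts it was 1.23 (SE 0.33, adjusted p 0.0199), and in sleep hearts 1.04 (SE 0.33), which did not pass the test (adjusted p 0.113). With the beta-actin ratio in the fit, the rise over both times was 0.85 and no longer passed (adjusted p 0.0961). The wake call was lost without wake sham 1 (1.27, adjusted p 0.0509), wake sham 3 (1.07, adjusted p 0.0785) or wake MI 3 (1.18, adjusted p 0.0520), and with the beta-actin ratio in the fit (0.78, adjusted p 0.350). Without sleep sham 3 the sleep value was 0.49. Because the lowest sham signals lie under the filter level of 17.3, the size depends on the constant added before the log, from 0.63 with 64 added to 1.57 with 1 added, both called.

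Neutrophil markers were also higher in MI hearts. Over both times, 7 of the 8 neutrophil markers tested rose in MI hearts, beside 8.57% of all genes tested. The summed neutrophil signals were 278 to 800 in wake sham, 1393 to 3344 in wake MI, 515 to 2111 in sleep sham and 1764 to 3267 in sleep MI hearts. The lowest of the sleep sham sums, 515, was that of sleep sham 3, the heart with the low Hmox1 signal. The lowest of the wake MI sums, 1393, was that of wake MI 3, which had the highest Hmox1 signal of the wake MI hearts. Of the 9 macrophage markers tested, Cd14 rose, Lyz2 fell and 7 did not pass, beside 8.57% of all genes higher and 13.6% lower. The macrophage sums were 4118 to 6577 in wake sham, 3350 to 3911 in wake MI, 4022 to 4562 in sleep sham and 4064 to 4375 in sleep MI hearts. The part of these cells in the Hmox1 signal was not tested.

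Nqo1 encodes a quinone reductase that uses NADH or NADPH and is often read as a marker of Nrf2 activity. Its signal was 139.9, 174 and 144 in wake sham and 192, 152 and 113 in wake MI hearts. The sleep sham hearts were at 209.5, 178 and 189 and the sleep MI hearts at 155, 236 and 152. MI and sham hearts overlapped at both times, and the change over both times was -0.06 (SE 0.13, adjusted p 0.760, 95% interval -0.34 to 0.21). That interval holds no rise above 0.21 on the log2 scale, where the lower bounds of the rises of Hmox1, Txnrd1, Srxn1 and Gclc were 0.63, 0.52, 0.24 and 0.36. The sign of the Nqo1 value turned in some alternative settings, reaching 0.14 (SE 0.15) with the beta-actin ratio in the fit. In that fit Srxn1 stood at 0.46 (SE 0.19), Gclc at 0.58 (SE 0.12), Txnrd1 at 0.64 (SE 0.15) and Hmox1 at 0.85 (SE 0.30). The difference between Nqo1 and these genes was not tested.

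Txnrd1 encodes the cytosolic thioredoxin reductase, which keeps thioredoxin reduced at the expense of NADPH. Its signal was 236, 273 and 189.9 in wake sham hearts and 450.0, 412 and 422 in wake MI hearts. Sleep sham hearts stood at 295, 289.6 and 179, and sleep MI hearts at 391, 399 and 466. Every MI heart stood above every sham heart, at either time, and wake and sleep MI hearts overlapped. The rise over both times was 0.78 (SE 0.12, adjusted p 0.000681), or 1.72-fold, the smallest adjusted p of the 10 genes. It was 0.85 in wake (SE 0.17, adjusted p 0.00479) and 0.71 in sleep hearts (SE 0.17, adjusted p 0.0411). The call over both times held with the beta-actin ratio in the fit and without the atrial-rich arrays, while the sleep value fell to 0.49 without those arrays (adjusted p 0.101). With the beta-actin ratio in the fit both the wake call (0.62, adjusted p 0.149) and the sleep call (0.66, adjusted p 0.0672) were lost. The sleep call was also lost without any 1 of 7 single arrays (wake MI 2, wake sham 1, sleep sham 1, sleep sham 3 and each sleep MI heart), with values of 0.49 to 0.83 and adjusted p-values of 0.0519 to 0.136. The other 2 Txnrd1 probe sets had mean signals of 4.39 and 2.80, under the filter level. Averaging all 3 gave 0.24 (adjusted p 0.0525), so the result rests on 1 probe set.

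Srxn1 encodes sulfiredoxin, which restores peroxiredoxins that have been over-oxidised. Its signal was 80.5, 113 and 95.7 in wake sham hearts and 113, 142 and 102 in wake MI hearts, and these groups overlapped. In sleep sham hearts it was 93.1, 80.4 and 50.2, all below the sleep MI hearts at 112, 143 and 172. The rise over both times was 0.54 (SE 0.14, adjusted p 0.0139), or 1.45-fold. In sleep hearts it was 0.82 (SE 0.20, adjusted p 0.0406), and in wake hearts 0.26 (SE 0.20, adjusted p 0.381). The difference between the times was -0.56 (SE 0.28, 95% interval -1.15 to 0.03) and did not pass the test (adjusted p 0.493), so the rise was not shown to differ by time of day. Without the atrial-rich arrays the call over both times was lost (0.43, adjusted p 0.0545), as was the sleep call (0.61, adjusted p 0.185). The beta-actin ratio in the fit ended both too (0.46, adjusted p 0.150, and 0.79, adjusted p 0.0720). Leaving out 1 array ended the sleep call for 6 arrays (wake sham 3, sleep sham 2, sleep sham 3 and each sleep MI heart), with values of 0.61 to 0.97 and adjusted p-values of 0.0534 to 0.149. The other 2 tested probe sets gave rises of 0.47 and 0.50 over both times with adjusted p-values of 0.0146 and 0.0148, and the remaining one, at a mean signal of 16.3, lay under the filter level. In sleep hearts the values of the other 2 tested probe sets were 0.46 (adjusted p 0.194) and 0.63 (adjusted p 0.0929), and neither passed.

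Gclc and Gclm encode the catalytic and the modifier subunit of glutamate-cysteine ligase, the enzyme of the rate-limiting step of glutathione synthesis. Gclc passed the test over both times and Gclm did not. Gclc was at 77.1, 88.6 and 66.3 in wake sham and 124, 137 and 128 in wake MI hearts. In sleep sham hearts it was at 64.9, 91.1 and 73.7, and in sleep MI hearts at 116, 103 and 115. Every MI heart stood above every sham heart, and wake MI hearts also stood above sleep MI hearts, a difference of 0.19 that did not pass the test (SE 0.13, adjusted p 0.838). The rise of Gclc over both times was 0.55 (SE 0.09, adjusted p 0.00106), or 1.47-fold. It was 0.64 in wake (SE 0.13, adjusted p 0.00468) and 0.47 in sleep hearts (SE 0.13), where it missed the threshold (adjusted p 0.0742) except without sleep sham 2 (0.58, adjusted p 0.0365). The other Gclc probe set rose by 0.53 over both times (adjusted p 0.0126), and the call over both times held with the beta-actin ratio in the fit and without the atrial-rich arrays. The wake call was lost with the beta-actin ratio in the fit (0.68, adjusted p 0.0619).

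Gclm was at 189.5, 324 and 148 in wake sham hearts and 210.6, 157 and 109 in wake MI hearts. The sleep values were 235, 205 and 163 in sham and 142, 246 and 216 in MI hearts. The groups overlapped at both times, and the hearts of each group spread widely, from 148 to 324 in wake sham. The change over both times was -0.21 (SE 0.19, adjusted p 0.460), with a 95% interval of -0.62 to 0.20 that ends below the lower bound of the Gclc rise, 0.36. With the beta-actin ratio in the fit, Gclm stood at -0.13 (SE 0.26) and Gclc at 0.58 (SE 0.12). The difference between the subunits was not itself tested.

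Cth encodes cystathionine gamma-lyase, which makes cysteine from cystathionine and is also a source of hydrogen sulfide. Its signal was low on most arrays, at 14.1, 35.1 and 19.3 in wake sham and 18.1, 16.9 and 13.2 in wake MI hearts. Among the sleep hearts it was 43.8, 47.1 and 80.2 in sham and 16.4, 18.8 and 19.1 in MI. The sleep sham hearts stood above all 9 others, and the other 3 groups overlapped. In sleep hearts Cth fell in MI by 1.07 on the log2 scale (SE 0.21, adjusted p 0.0166), and over both times by 0.66 (SE 0.15, adjusted p 0.00685). The wake change of -0.24 did not pass the test (SE 0.21, adjusted p 0.448). The sleep sham heart with the highest Cth signal is the atrial-rich sleep sham 3, and without it the sleep value was -0.85 (adjusted p 0.0774; adjusted p 0.0970 without both atrial-rich arrays), and without sleep MI 1 it was -1.03 (adjusted p 0.0755). With the beta-actin ratio in the fit the value over both times was -0.52 (adjusted p 0.115). Since many of these signals lie near the filter level of 17.3, the size over both times ran from -0.33 with 64 added to -0.98 with 1 added before the log.

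Gsta3 encodes an alpha-class glutathione transferase, which joins glutathione to electrophiles. Its main probe set was at 92.2, 90.8 and 100.2 in wake sham and 76.6, 69.8 and 68.4 in wake MI hearts. In sleep sham hearts it was at 64.5, 74.7 and 62.8, and in sleep MI hearts at 39.4, 38.5 and 27.9. MI hearts lay below sham hearts at each time, and sleep hearts lay below wake hearts within MI and within sham. The fall over both times was 0.52 on the log2 scale (log2 -0.52, SE 0.09, adjusted p 0.00118). In sleep hearts the change was -0.71 (SE 0.12, adjusted p 0.00895), and in wake hearts -0.33 (SE 0.12), which missed the threshold (adjusted p 0.0739). The second Gsta3 probe set did not show this. It was at 37.4, 31.4 and 28.1 in wake sham, 41.8, 36.6 and 49.1 in wake MI, 34.4, 35.3 and 17.2 in sleep sham and 20.7, 24.8 and 19.1 in sleep MI hearts. Its change over both times was 0.02 (adjusted p 0.927), with 0.28 in wake and -0.24 in sleep hearts, neither called. Alpha-class transferases are close paralogs, and how far either probe set reads its relatives was not tested, so the direction of Gsta3 in MI is uncertain.

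**Figure D2:**
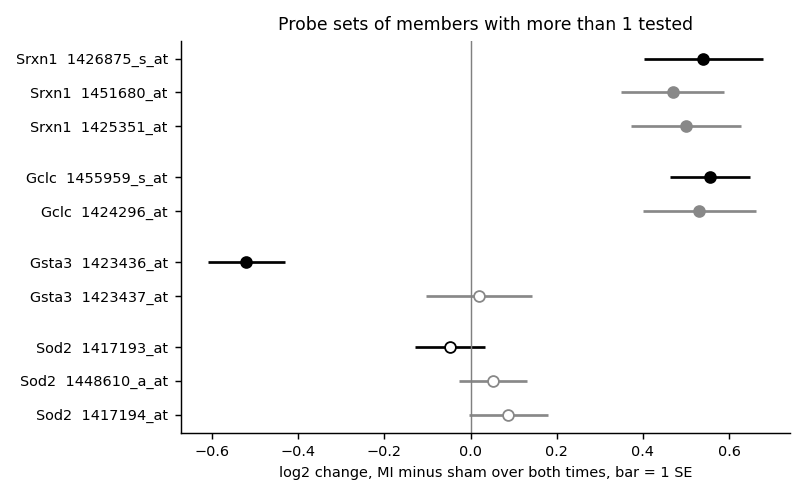
Log2 change in MI against sham hearts over both times (horizontal axis, log2(signal + 16) scale) for each tested probe set of the 4 genes with more than 1, with bars of 1 SE; filled points passed the test and black marks the probe set that stands for the gene. The 3 Srxn1 and 2 Gclc probe sets rose alike, from 0.47 to 0.55, while the Gsta3 probe sets stood at -0.52 and 0.02 and the Sod2 probe sets lay on both sides of 0.

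Gpx3 encodes the secreted glutathione peroxidase. Its signal was 1156, 1447 and 1554 in wake sham and 984, 864 and 959 in wake MI hearts, without overlap. In sleep sham hearts it was 1464, 1089 and 1121, and in sleep MI hearts 923, 1217 and 1071, with overlap. The change over both times was -0.37 (SE 0.10, adjusted p 0.0189), with -0.55 in wake hearts (SE 0.14, adjusted p 0.0173) and -0.19 in sleep hearts (SE 0.14, adjusted p 0.546). The difference between the times was -0.36 (SE 0.20, adjusted p 0.547) and did not pass. The call over both times was lost with the beta-actin ratio in the fit (-0.44, adjusted p 0.0613), without the atrial-rich arrays (-0.35, adjusted p 0.0575), without wake sham 3 (-0.33, adjusted p 0.0515) and without sleep MI 1 (-0.32, adjusted p 0.0514). The wake call was lost without wake MI 2, wake sham 2 or wake sham 3, with values of -0.46 to -0.51 and adjusted p-values of 0.0518 to 0.0767. It was also lost with the beta-actin ratio in the fit (-0.67, adjusted p 0.0881) and without the atrial-rich arrays (-0.46, adjusted p 0.0800). Fibroblast markers fell beside it in wake hearts, 3 of 8 tested (Lum, Col1a1 and Tcf21), where 10.6% of all genes fell. Their sums were 8254 to 12630 in wake sham and 5735 to 7448 in wake MI hearts, the highest that of the atrial-rich wake sham 3. In sleep hearts 0 of the 8 were called. The part of fibroblasts in the Gpx3 signal was not tested.

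Sod2 encodes the manganese superoxide dismutase of mitochondria, which turns superoxide into hydrogen peroxide. Its signal was 3829, 3589 and 3661 in wake sham and 3787, 3487 and 2737 in wake MI hearts. Sleep sham hearts were at 3370, 2993 and 3727 and sleep MI hearts at 3486, 3492 and 3529. The groups overlapped at both times, and the change over both times was -0.05 (SE 0.08, adjusted p 0.722, 95% interval -0.22 to 0.13). The other 2 probe sets gave 0.09 and 0.05, neither called (adjusted p 0.544 and 0.689).

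By time of day, 4 of the 10 genes passed the test in wake hearts, Hmox1, Txnrd1 and Gclc upward and Gpx3 downward, where 18.4% of all genes did (7.8% higher and 10.6% lower). In sleep hearts 4 of 10 passed, Srxn1 and Txnrd1 upward and Gsta3 (main probe set) and Cth downward, where 2.68% of all genes did (1.69% higher and 0.986% lower). These shares are no test of the group either, since the genes were chosen with earlier results of these data known. Txnrd1 was the 1 gene called at both times. Tested directly, the MI effect differed between wake and sleep for 0 of the 10 genes (adjusted p of 0.344 or more) and for 0% of all genes in limma's test; at an unadjusted p below 0.05 there were 848 of 8111 genes and 1 of the 10, Cth. For Cth the effect was higher (less of a fall) in wake hearts by 0.82 (SE 0.29, 95% interval 0.19 to 1.46, adjusted p 0.344). Lists of calls that differ between the times therefore do not show that the genes responded differently. Without the atrial-rich arrays 1 of the 10 genes, Gsta3, was called in sleep hearts, and with the beta-actin ratio in the fit 0 were called in wake hearts (3 at an unadjusted p below 0.05).

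**Figure D3:**
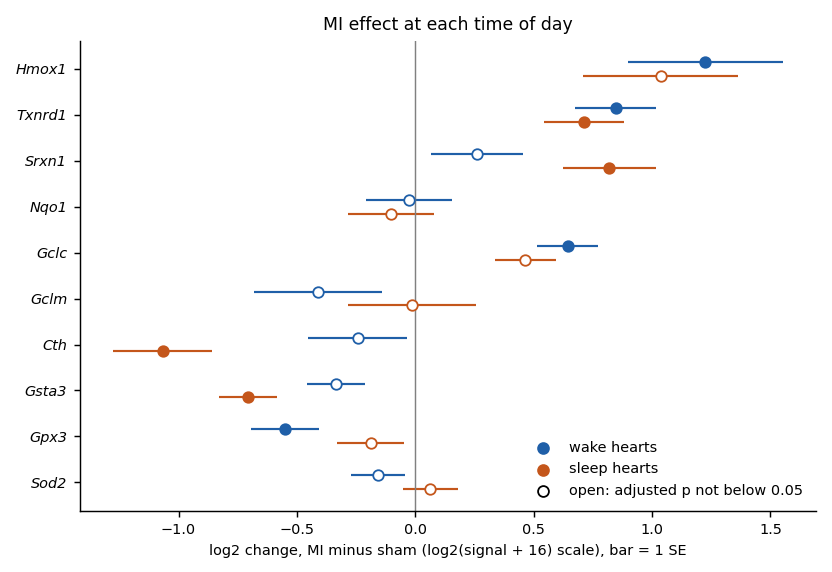
Log2 change in MI against sham hearts (horizontal axis, log2(signal + 16) scale) of the 10 genes in wake hearts (blue) and sleep hearts (orange), 3 arrays per group, with bars of 1 SE; filled points passed the test at an adjusted p below 0.05. Hmox1, Txnrd1 and Gclc lie to the right at both times, while Srxn1 and Cth lie farther from 0 in sleep and Gpx3 farther in wake hearts, differences that did not pass a test.

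Wake and sleep hearts were also compared within each surgery. These comparisons use the same arrays as the MI effects above, so a high or low group enters both. Among MI hearts 1 of the 10 genes was called, Gsta3, higher in wake hearts by 0.78 (SE 0.12, adjusted p 0.0304), or 1.72-fold, where 0.074% of all genes passed (0.037% higher and 0.037% lower). Its second probe set stood higher in wake MI hearts too, by 0.64, without passing (adjusted p 0.668). The Gsta3 call was lost without any 1 of 10 of the 12 arrays, with adjusted p-values from 0.0602 to 0.169 and values from 0.67 to 0.84, and without the atrial-rich arrays (0.78, adjusted p 0.0501). Hmox1 stood lower in every wake MI heart than in every sleep MI heart, by 0.67 on the log2 scale (log2 -0.67, SE 0.33), and did not pass (adjusted p 0.773).

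Among sham hearts 1 of the 10 was called, Cth, lower in wake hearts (log2 -0.91, SE 0.21, adjusted p 0.0460), where 1.52% of all genes passed (0.419% higher and 1.1% lower). The call was lost without any 1 of 10 of the 12 arrays (values of -0.70 to -1.04, adjusted p from 0.0576 to 0.246), and its value was -0.65 (adjusted p 0.238) without the atrial-rich arrays. It was also lost with the beta-actin ratio in the fit (-1.03, adjusted p 0.0763). Hmox1 was at -0.86 (SE 0.33, adjusted p 0.253). Without sleep sham 3 it was at -1.40 (adjusted p 0.00054), and without both atrial-rich arrays at -1.25 (adjusted p 0.00170), called in both. Sleep sham 3, set apart by its atrial markers, is also the sleep sham heart with the low Hmox1 signal. Since leaving it out removes that signal, and the atrial-rich setting was chosen after seeing the data, these values are no test of the difference. Gsta3 was at 0.41 (SE 0.12, adjusted p 0.141) with no overlap between the groups. Nqo1 did not overlap either, lower in all wake sham hearts, with a value of -0.31 (SE 0.18, adjusted p 0.481).

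Beyond the 10 genes, the regulators and partners of Nrf2 were taken as a list of 12, of which 11 were tested. Over both times 2 rose and 9 did not pass, beside 8.57% of all genes tested that rose. The list median was 0.05, beside -0.06 for all genes. The 2 that rose encode small Maf proteins, partners of Nrf2 and of Bach1 on DNA. Maff rose by 1.76 (SE 0.14, adjusted p 3.53e-06), from 42.8 ± 9.53 to 298 ± 52.4 in wake hearts (mean ± SD, n = 3) and from 133 ± 42.5 to 296 ± 37.8 in sleep hearts. Mafk rose by 0.91 (SE 0.09), from 154.5 ± 31.2 to 370.3 ± 12.7 and from 214 ± 25.7 to 338 ± 4.19. The gene of Nrf2 itself, Nfe2l2, stood at -0.02 (SE 0.17, adjusted p 0.941), Keap1 at -0.12 (SE 0.09, adjusted p 0.374) and Bach1 at 0.25 (SE 0.14, adjusted p 0.216). These are transcript levels, and the activity of Nrf2, which is set largely by protein stability, was not measured.

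The metallothioneins, metal-binding and thiol-rich proteins, rose over both times, 2 of 2, beside 8.57% of all genes tested. Mt2 rose by 2.27 (SE 0.23, adjusted p 2.18e-05), from 547 ± 233 to 6792 ± 540 in wake hearts, while sleep sham hearts were already at 4402 ± 2042 and sleep MI hearts at 7372 ± 401 (mean ± SD, n = 3). Mt1 rose by 0.75 (SE 0.11, adjusted p 0.000372), from 3902 ± 831 to 8935 ± 1072 in wake hearts. In sleep hearts neither passed (Mt2 0.88, adjusted p 0.177, and Mt1 0.30, adjusted p 0.331). The MI effect was not shown to differ by time of day. Its difference, wake minus sleep, was 2.79 for Mt2 (adjusted p 0.0975) and 0.91 for Mt1 (adjusted p 0.160). Both metallothioneins were lower in wake than in sleep sham hearts, where 1.1% of all genes were called lower. The values were log2 -2.91 for Mt2 (adjusted p 0.000401) and -0.91 for Mt1 (adjusted p 0.00815).

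Of the genes of glutathione synthesis, cystine uptake and breakdown, 9 were tested, of which 1 rose, 2 fell and 6 did not pass. Beside the 8.57% of all genes that rose and the 13.6% that fell, counts of this size in short lists are near the background, as they are for the haem and iron and the NADPH genes below. Slc3a2, the heavy chain of the cystine and amino acid transporters, rose by 0.54 (SE 0.13, adjusted p 0.0120), with 0.93 in wake and 0.16 in sleep hearts. The difference between the times did not pass the test (adjusted p 0.341). Without the atrial-rich arrays Slc3a2 was not called over both times. Ggct, which breaks down gamma-glutamyl dipeptides, fell (log2 -0.48, adjusted p 0.00161), as did Ggt5 (log2 -0.34, adjusted p 0.0321), a gamma-glutamyl transferase whose call was lost in 12 of 23 alternative settings. Slc7a11, the cystine carrier, and Cbs lay under the filter level. Of the haem and iron genes 10 were tested, and 1 rose, 2 fell and 7 did not pass. Hp, the haemoglobin-binding haptoglobin, rose by 0.70 (SE 0.17, adjusted p 0.0119). The iron exporter Slc40a1 fell (log2 -0.56, adjusted p 0.0287) and so did Blvrb, which encodes biliverdin reductase B (log2 -0.53, adjusted p 0.000639). The call of Hp, but not that of Blvrb, was lost with the beta-actin ratio in the fit, and that of Slc40a1 was lost in 8 of 24 alternative settings.

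In the other lists no gene rose over both times. Of 19 glutathione peroxidases and transferases tested, 4 fell and 15 did not pass, beside 13.6% of all genes that fell, with a list median of -0.23 beside -0.06 for all genes. Gpx8, a peroxidase of the endoplasmic reticulum, stood at -0.45 (adjusted p 0.0140; -0.29 and adjusted p 0.226 with the beta-actin ratio in the fit) and Gstt2, a theta-class transferase, at -0.37 (adjusted p 0.0484), the latter lost in 16 of 23 alternative settings. Of 11 thioredoxin, peroxiredoxin and glutaredoxin genes 2 fell, Prdx4 (log2 -0.29, adjusted p 0.0371) and Txn1, the cytosolic thioredoxin (log2 -0.22, adjusted p 0.0304). Both calls were lost in several settings, 13 of 24 for Prdx4 and 9 of 24 for Txn1, and the mean of its probe sets turned the sign of Prdx4 (0.03). Of 7 superoxide dismutase, catalase and oxidase genes 1 fell, the extracellular Sod3 (log2 -0.50, adjusted p 0.0317), lost in 11 of 24 settings. Of 7 genes of NADPH supply 2 fell, the cytosolic isocitrate dehydrogenase Idh1 (log2 -0.50, adjusted p 0.00325) and the transaldolase Taldo1 (log2 -0.26, adjusted p 0.0137), and both kept their call in all 24 settings. Sod3, Gpx8 and Txn1 stood at -0.87, -0.74 and -0.38 in wake hearts and at -0.14, -0.17 and -0.06 in sleep hearts. Prdx4, Gstt2, Idh1 and Taldo1 stood at -0.41, -0.31, -0.47 and -0.27 in wake and at -0.18, -0.44, -0.52 and -0.26 in sleep hearts. For Sod3, Gpx8 and Txn1 the difference between the times did not pass the test (adjusted p 0.432, 0.415 and 0.414). None of the genes named from these lists was called in sleep hearts, where only 0.986% of all genes were called lower.

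**Figure D4:**
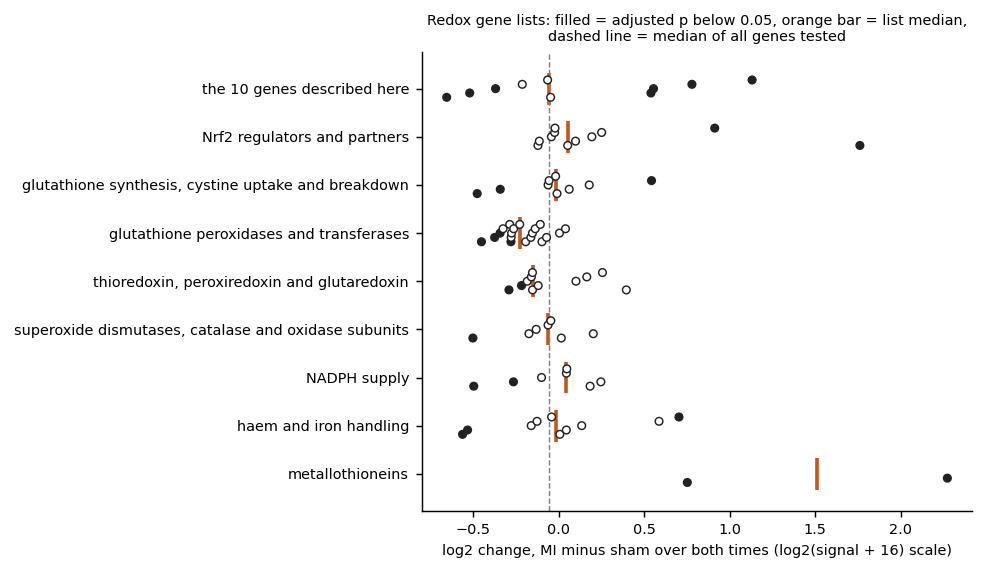
Log2 change in MI against sham hearts over both times (horizontal axis, log2(signal + 16) scale) of each tested gene of the 10 described and of the 8 related lists, 1 point per gene, filled where the adjusted p was below 0.05; the orange bar is the list median and the dashed line the median of all 8111 genes, -0.06. Mt2 and Maff stand farthest to the right, at 2.27 and 1.76, and the peroxidases and transferases lie mostly left of 0 with a median of -0.23.

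The genes whose signals ran most like each member's over the 12 arrays were found by Pearson's r of log2(signal + 16), as a description without a test, since all 12 arrays share the group structure. Hmox1 ran most like Gfpt2 (r 0.948) and Tnfrsf1a (r 0.943). Txnrd1 ran most like P2ry2 (r 0.972) and Map2k3 (r 0.967), and Gclc most like Adamts4 (r 0.948) and Uhrf1bp1l (r 0.934). For Srxn1 the nearest were Fbxw8 (r 0.903) and Cacna1g (r 0.887), for Cth Mtmr14 (r 0.944) and Abcb1b (r 0.942), for Gpx3 Lyrm2 (r 0.902) and Atox1 (r 0.899), and for Gsta3 Kmt5c (r 0.927) and Gna12 (r 0.892). Among the genes that did not pass the test, Sod2 ran most like Fxyd1 (r 0.956) and Mrpl35 (r 0.937), Gclm like Ctsl (r 0.899) and Cdo1 (r 0.860), and Nqo1 like Haus2 (r 0.907) and Rad54l2 (r 0.890). No member was among the 2 nearest of another.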

How the data were processed

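Total RNA of 12 hearts, 3 mice in each of 4 groups, was extracted with Trizol and hybridised to Affymetrix arrays, per the labels' protocols. The authors deposited 1 linear-scale intensity for each probe set and array, made with MAS5 per the submitters' processing notes. Neither its version nor its options were found in the sources, and no detection calls were used. The 2% trimmed mean was 150.1 on each array, so no further scaling was applied. Batches were not given. Of 22690 probe sets, 64 were controls, 20380 had 1 gene symbol in the array's annotation, 691 several and 1555 none. Of those with 1 symbol, 20351 matched a RefSeq gene table (GRCm38.p6), and 0 symbols changed. Of several probe sets for a gene, the one with the highest mean stood for it. Genes were tested where that mean reached the 40th percentile of probe sets (17.3).

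Log2(signal + 16) was fitted with limma 3.58.1 in R 4.3.3, with 4 group means, an intensity trend and two-sided tests (8 residual degrees of freedom, 13.9 with the prior), in 6 comparisons. An exact permutation test of 3 against 3 cannot give a p below 0.1. Members, related lists and the naming rule were chosen with earlier results of these data known. The rule names each member, up to 2 called genes per list and direction with the largest change over both times, Nfe2l2, Keap1 and Bach1, and the 2 genes most like each member. Alternatives were 1 or 64 added before the log, other filters and normalizations, the mean or each of a gene's probe sets, other variance settings, the compared groups alone, the replicate block, the beta-actin ratio as covariate and each array left out. Leaving out both atrial-rich arrays was chosen after seeing the data. The fit was tested on simulated data.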

Additional observations from a re-analysis of the deposited data

How the results depend on the processing

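Of 498 values of single genes under the alternatives, 443 kept their direction and side of the threshold, 41 lost a call, 1 gained one and 13 changed sign. Over both times, the call of Gclc held in all 13 alternatives and with each of the 12 arrays left out, while that of Gpx3 was lost in 2 of 12 alternatives and without either of 2 arrays.

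The beta-actin ratio as covariate left 675 genes and 3 of the 10 over both times, 265 and 0 in wake hearts, 2 of the 10 in sleep hearts, and 38 and 0 between sham groups. Leaving out the atrial-rich arrays left 1005 genes over both times, 861 in wake, 69 and 1 of the 10 in sleep hearts, 0 of the 10 between MI groups, and gave 22 genes in the difference of the effects. Without the level filter, 140 genes and 2 of the 10 passed in sleep hearts, 2 and 0 between MI groups, and 75 and 0 between sham groups. Averaging all probe sets of a gene gave 2 of the 10 in sleep hearts, 2 genes and 0 of the 10 between MI groups, and 72 and 0 between sham groups. The compared groups alone gave 2 of the 10, 3 genes and 0 of the 10, and 65 and 0. Without the intensity trend 3 genes passed between MI groups. Between sham groups 0 of the 10 passed with 1 added, with quantile normalization, and with the 60th percentile filter, which left Cth untested. The difference of the effects held 1 gene with that filter, with median centring or with robust variances, and 2 with quantile normalization. The cause was not tested.

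Same-numbered arrays deviated together no more than others did (18 pairs, r from -0.17 to 0.25, beside 36 other pairs, r from -0.20 to 0.28). With only 3 arrays per group this does not settle whether hearts shared a batch or day, and they were treated as unpaired. With the replicate block, 3 genes and 0 of the 10 passed between MI groups, 0 of the 10 between sham groups, and 3 genes in the difference.

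The sign turned for Nqo1 over both times (0.14) and in wake hearts (0.30) with the covariate, and in wake hearts with median centring (0.0023). It turned for Sod2 over both times with the mean of probe sets (0.0309), the covariate (0.0733) and each of its other probe sets (0.0880 and 0.0520), and in wake hearts with the covariate (0.0351) and 1 of those probe sets (0.0792). It turned for Gclm in sleep hearts with the covariate (0.0160), for Gsta3 with its second probe set over both times (0.0198) and in wake hearts (0.28), and for the Srxn1 difference with 1 of its other probe sets (0.0110).

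With 1 array left out, genes called ranged from 838 to 1521 in wake hearts, 57 to 290 in sleep hearts, 0 to 7 between MI groups, 30 to 229 between sham groups and 0 to 36 in the difference. Of the 10 genes, 2 to 4 passed in wake hearts, 1 to 4 in sleep hearts, 0 to 1 between MI groups and 0 to 1 between sham groups. The most in the difference, 36 genes, came without sleep sham 3. Log2 changes ranged from -0.16 to 0.0240 for Nqo1 over both times and from -0.19 to 0.15 in wake hearts, from -0.10 to 0.0206 for Sod2 over both times and from -0.0171 to 0.14 in sleep hearts, and from -0.17 to 0.20 for Gclm in sleep hearts. Leaving out wake sham 1, wake sham 3 or wake MI 3 ended the wake call of Hmox1 (adjusted p from 0.0509 to 0.0785). The low signals of Cth and of Hmox1 in sham hearts limit the order of those values.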
